A study of Mus musculus with 10 samples.

Results

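Oxidative phosphorylation is carried out by 5 protein complexes of the inner mitochondrial membrane, and their subunits were followed here in tumors of mice given liraglutide or vehicle. The members were the protein-coding genes whose mouse symbols begin as those of the subunits of complex I (Nduf genes of the a, b, c, s and v series and mt-Nd), complex II (Sdha to Sdhd), complex III (Uqcr, Cyc1 and mt-Cytb), complex IV (Cox4 to Cox8 and mt-Co) and complex V (Atp5 and mt-Atp). This gave 103 members among the 55401 genes of the counts, 90 in the nuclear genome and 13 in the mitochondrial genome. Complex I had 37 nuclear and 7 mitochondrial members, complex II 4 nuclear members, complex III 9 and 1, complex IV 21 and 3, and complex V 19 and 2. Ndufa4 and Ndufa4l2 were counted with complex IV, where their proteins are found. The members kept by their symbols include Cox7a2l, described as a supercomplex assembly factor, a role not examined in these mice, and Atp5if1, which inhibits complex V.

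RNA came from 10 subcutaneous KPN1.1 tumors of male C57BL/6J mice with diet-induced obesity, 5 from mice given liraglutide and 5 from mice given PBS as vehicle. The KPN1.1 cells were derived from mouse lung cancer, and all tumors descend from this same line. Mice were 7 to 17 weeks old when 75000 cells were injected into the flank, received liraglutide (0.2 µg per gram of body weight daily, intraperitoneally) or PBS from the time tumors could be felt, and were euthanized between days 19 and 22, with 2000 mm3 as the limit of tumor volume. Liraglutide is an agonist of the glucagon-like peptide-1 receptor. Each value below is from bulk RNA, in which fewer cells of a type and less RNA per cell cannot be told apart. Total counts per tumor ranged from 9927942 to 14480593, and levels are given as CPM, counts scaled to a common library size after TMM normalization. Of the markers for an epithelial lung tumor, the keratins Krt8 and Krt18, which are not specific to lung, were at 2435 ± 651 and 1615 ± 330 CPM (SD, n = 5 vehicle tumors). The other epithelial genes Krt19, Cdh1 and Krt7 were at 1340, 1129 and 249.8 CPM on average in vehicle tumors, and Epcam at 2.46 CPM. Of the lung genes, Sftpb was at 274 CPM, the factor Nkx2-1 at 46.3 CPM, Sftpc at 1.15 CPM and Napsa at 1.03 CPM, beside 395 CPM of Hmga2 and 171 to 328 CPM of Hnf4a, a factor known from liver and gut.

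Complex I takes electrons from NADH and complex II takes them from succinate, both passing them through coenzyme Q to complex III, then through cytochrome c to complex IV, which reduces oxygen. Complexes I, III and IV pump protons, and complex V uses the proton gradient to make ATP. Complex II is the complex with no mitochondrially encoded subunit, and the other 4 are built from subunits of both genomes, whose RNAs are made by different polymerases. The mitochondrial genome is transcribed as long precursors from each strand, and mt-Nd6 is the only subunit gene read from the light strand.

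The mitochondrially encoded subunits fell into 2 sets by how they could be counted. For 6 of the 13 (mt-Co2, mt-Atp8, mt-Atp6, mt-Co3, mt-Nd3 and mt-Nd4l), at most 17 counts were recorded in a tumor and 228 in all tumors together. These 6 genes are neighbors on the mitochondrial genome and have near-identical copies in a nuclear block of 4650 bases, chr1:24650616-24655265 of GRCm39, on the minus strand. Of their 100-base stretches (the read length), 98.8% to 100% occur elsewhere in the genome without a mismatch. mt-Co2, mt-Atp8, mt-Atp6, mt-Co3 and mt-Nd4l were identical to the copy over their whole length, and mt-Nd3 differed at 1 base of 348, T3C, with positions counted from the first base of the mitochondrial gene and the mitochondrial base given first. The sequences shown here are the first 120 bases of a gene with 0 differences (mt-Co2, chrM:7013-7132 on the plus strand and chr1:24654527-24654646 on the minus strand) and of mt-Nd3 (chrM:9459-9578 on the plus strand and chr1:24652081-24652200 on the minus strand), because they show how little separates a mitochondrial read from its nuclear copy. All are from GRCm39 and capitals mark the base that differs.
mt-Co2, mitochondrial: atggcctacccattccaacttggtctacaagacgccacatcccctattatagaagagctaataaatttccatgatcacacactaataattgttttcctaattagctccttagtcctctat
mt-Co2, copy on chromosome 1: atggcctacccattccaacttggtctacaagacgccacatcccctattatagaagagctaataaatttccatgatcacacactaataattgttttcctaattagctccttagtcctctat
mt-Nd3, mitochondrial: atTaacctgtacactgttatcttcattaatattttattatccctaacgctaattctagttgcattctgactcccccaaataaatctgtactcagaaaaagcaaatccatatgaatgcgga
mt-Nd3, copy on chromosome 1: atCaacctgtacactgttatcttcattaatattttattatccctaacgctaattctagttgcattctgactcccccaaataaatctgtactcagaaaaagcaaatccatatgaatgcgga

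The 7 annotated pseudogenes of the nuclear block, counted as genes of their own, held 793 counts in all 10 tumors. The copied stretch ends inside mt-Nd4, after base 876 of 1378. The sequence around that end is shown because reads from its first part have an exact nuclear copy and reads from its last part do not (chrM:10983-11102, plus strand, GRCm39), and capitals mark the bases past the copied stretch.
mt-Nd4, end of the copied stretch: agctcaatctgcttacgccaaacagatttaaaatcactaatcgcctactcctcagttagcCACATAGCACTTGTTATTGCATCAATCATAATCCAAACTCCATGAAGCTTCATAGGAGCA
The other 7 mitochondrially encoded members had at least 2997 counts in every tumor. Of their 100-base stretches, 60.75% in mt-Nd4, 30.84% in mt-Co1 and 3.19% in mt-Nd2 had an exact copy elsewhere, and none in mt-Nd1, mt-Nd5, mt-Nd6 and mt-Cytb. How reads with more than 1 place were handled is not given in the sources used here, and the part of the copies in the low counts was not tested. Levels and changes of the mitochondrial genome were therefore read from these 7 genes, and no mitochondrially encoded subunit of complex V could be tested.

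**Figure D1:**
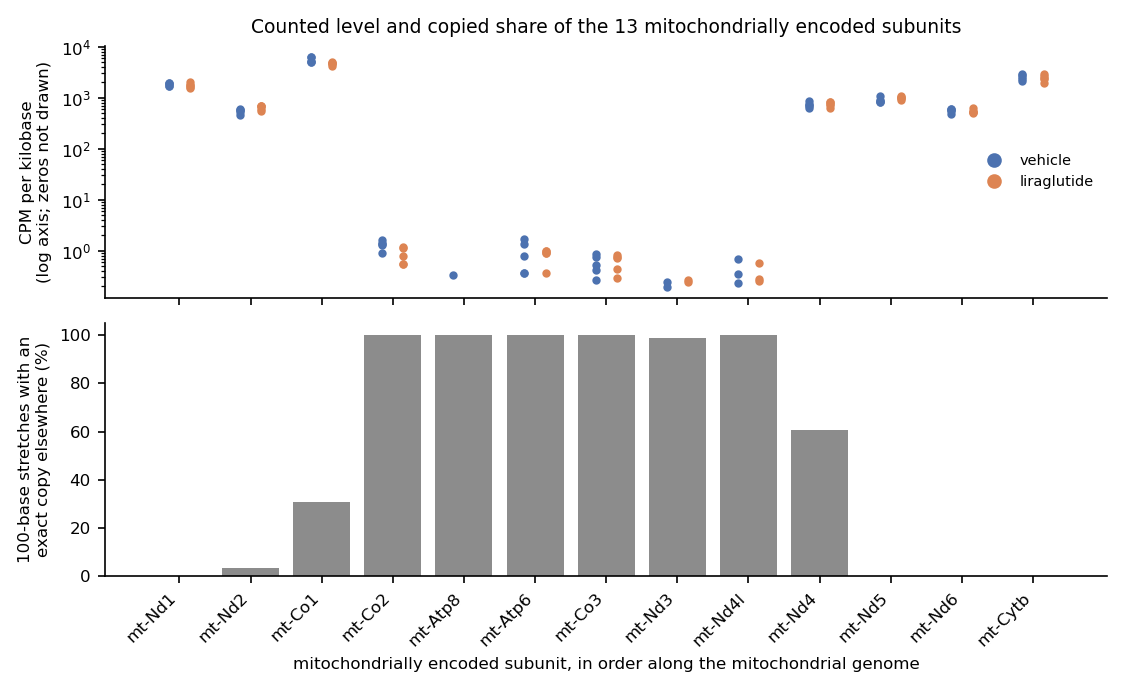
CPM per kilobase (upper panel, log axis, 1 point per tumor, vehicle blue and liraglutide orange, values of 0 not drawn) and the percent of 100-base stretches with an exact copy elsewhere in the genome (lower panel, bars) of the 13 mitochondrially encoded subunits in genome order. The 6 genes with 98.8% to 100% copied stretches have means of at most 1.08 CPM per kilobase, and the other 7 have means of at least 554.

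Among the 7 counted genes, mt-Co1, the catalytic subunit of complex IV, had the highest level per length, with a mean of 5068 CPM per kilobase over the 10 tumors. mt-Cytb of complex III followed at 2497, then mt-Nd1 at 1774, mt-Nd5 at 946, mt-Nd4 at 739, mt-Nd2 at 592 and mt-Nd6 at 554 CPM per kilobase. Counts were divided by the whole length also where part of it has exact copies, 60.75% of the stretches in mt-Nd4 and 30.84% in mt-Co1, so the place of mt-Nd4 in this order is uncertain. The range over tumors of mt-Co1 (4110 to 6269 CPM per kilobase) lay above that of every other gene, and that of mt-Nd1 (1564 to 1987) lay above those of mt-Nd5 and the genes after it. Neighbors overlapped from mt-Nd5 downward, and mt-Cytb (1927 to 2939) overlapped mt-Nd1. mt-Co1 made up between 44.1% and 53.8% of the counts of the 13 mitochondrially encoded members. The 13 members together took 1.47% to 1.90% of the counts of vehicle tumors and 1.46% to 1.69% of the counts of liraglutide tumors.

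The 7 counted mitochondrial genes had no common direction. mt-Co1 was at 7604, 9685, 8015, 9558 and 7760 CPM in vehicle tumors 1 to 5 and at 7343, 7738, 7021, 7227 and 6350 CPM in liraglutide tumors 1 to 5. Of the liraglutide tumors, 4 lay below all vehicle tumors, and liraglutide tumor 2 overlapped them. The log2 fold change of mt-Co1 was -0.26 (standard error 0.11, unadjusted p = 0.0360, adjusted p = 0.512 by edgeR's quasi-likelihood test with Benjamini-Hochberg adjustment).

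mt-Nd2, a complex I subunit, was at 628, 482, 534, 598 and 598 CPM in the vehicle tumors and at 571, 697, 726, 700 and 614 CPM in the liraglutide tumors. The groups overlapped, and 3 liraglutide tumors lay above all vehicle tumors. Its log2 fold change was 0.22 (standard error 0.11), with an unadjusted p of 0.0622 in edgeR's test. mt-Nd5, of the same complex, was at 0.14 (standard error 0.10), with 1641 ± 179 CPM in vehicle and 1808 ± 136 CPM in liraglutide tumors (SD, n = 5 each). The remaining log2 fold changes lay between -0.04 and 0.04, namely -0.04 for mt-Nd1, 0.04 for mt-Nd4, -0.02 for mt-Nd6 and -0.04 for mt-Cytb, each smaller than its standard error of 0.10 to 0.13. mt-Nd6, the light-strand gene, was at 290 ± 24.2 CPM in vehicle and 285 ± 27.0 CPM in liraglutide tumors (SD, n = 5 each).

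Because mt-Co1, mt-Cytb and the mt-Nd genes other than mt-Nd6 are read from the same strand, 4 ratios within a tumor were compared after the values had been seen, as a description with no test. The groups were apart in 1 of the 4. Per 100 CPM of mt-Co1, vehicle tumors had 15.8 to 21.5 CPM of mt-Nd5 and liraglutide tumors 21.9 to 31.1, without overlap. For mt-Nd2 the ratios per 100 were 4.98 to 8.26 in vehicle and 7.77 to 10.3 in liraglutide tumors, with liraglutide tumor 1 within the vehicle range. Per 100 CPM of mt-Cytb, mt-Nd5 was at 48.8 to 59.7 CPM in vehicle and 52.3 to 74.3 CPM in liraglutide tumors, and per 100 CPM of mt-Nd5, mt-Nd6 of the other strand was at 14.8 to 21.3 and 14.5 to 18.1 CPM, and both overlapped.

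Of the nuclear members, 82 of 90 had enough counts to be tested, and most had a lower estimate with liraglutide, although no member passed correction for the number of genes. The 8 nuclear members left out by the count filter were Cox5b-ps, Cox6a2, Cox6b2, Cox7b2, Cox8b, Cox8c, Ndufb11b and a second identifier named Atp5po. Over all 17464 genes tested, 0 (0%) had an adjusted p under 0.05 by edgeR's test, while 1675 had an unadjusted p under 0.05. By DESeq2's Wald test 40 genes reached an adjusted p under 0.05, 0 of them members. At an unadjusted p under 0.05, 5.62% of all genes tested were lower and 3.97% higher with liraglutide. Of the 89 tested members, 13 (14.6%) were lower and 0 higher at that threshold, 12 of the 82 nuclear members and mt-Co1 of the 7 mitochondrial ones. A negative log2 fold change was found for 68 of the 82 nuclear members (82.9%) and 4 of the 7 mitochondrial members, against 52.6% of all genes tested. The median log2 fold change was -0.12 over the nuclear members, -0.02 over the mitochondrial members and -0.02 over all genes tested. The mitochondrial median took both signs, at 0.03 with library size alone, 0.07 with a correction for gene length and 0.01 without liraglutide tumor 1. The difference between the genomes was not tested.

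Averaged over the tested nuclear members, the log2 deviation of a tumor from the mean over all 10 tumors was 0.06 ± 0.07 in vehicle and -0.06 ± 0.07 in liraglutide tumors (SD, n = 5 each), and 4 liraglutide tumors lay below all vehicle tumors. For single members, the median standard deviation between tumors was 0.17 on the log2 scale in vehicle and 0.16 in liraglutide tumors, and the median standard error of their log2 fold changes was 0.12. Of the tested members, 2 had a log2 fold change of more than 0.5 in size, Atp5mk and Cox4i2. The groups did not overlap in 2 members, Ndufa2 and Atp5pb, both lower with liraglutide, in 0 members with library size alone in place of TMM scaling, and in 2 to 11 members, all lower, when each tumor was left out in turn, with 11 without vehicle tumor 5. Over all genes tested, with TMM scaling and all 10 tumors, groups without overlap made up 0.888% that were lower and 0.607% that were higher. No such share is given for library size alone or with a tumor left out, so those counts have no share beside them. With fewer tumors, separate groups become more common for any gene. With library size alone, the members with an unadjusted p under 0.05 numbered 5 lower and 2 higher, and the median of all genes moved to 0.04 and that of the nuclear members to -0.06, with 58 of the 82 negative. The shares of all genes that were lower, higher or negative in that fit are not given.

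**Figure D2:**
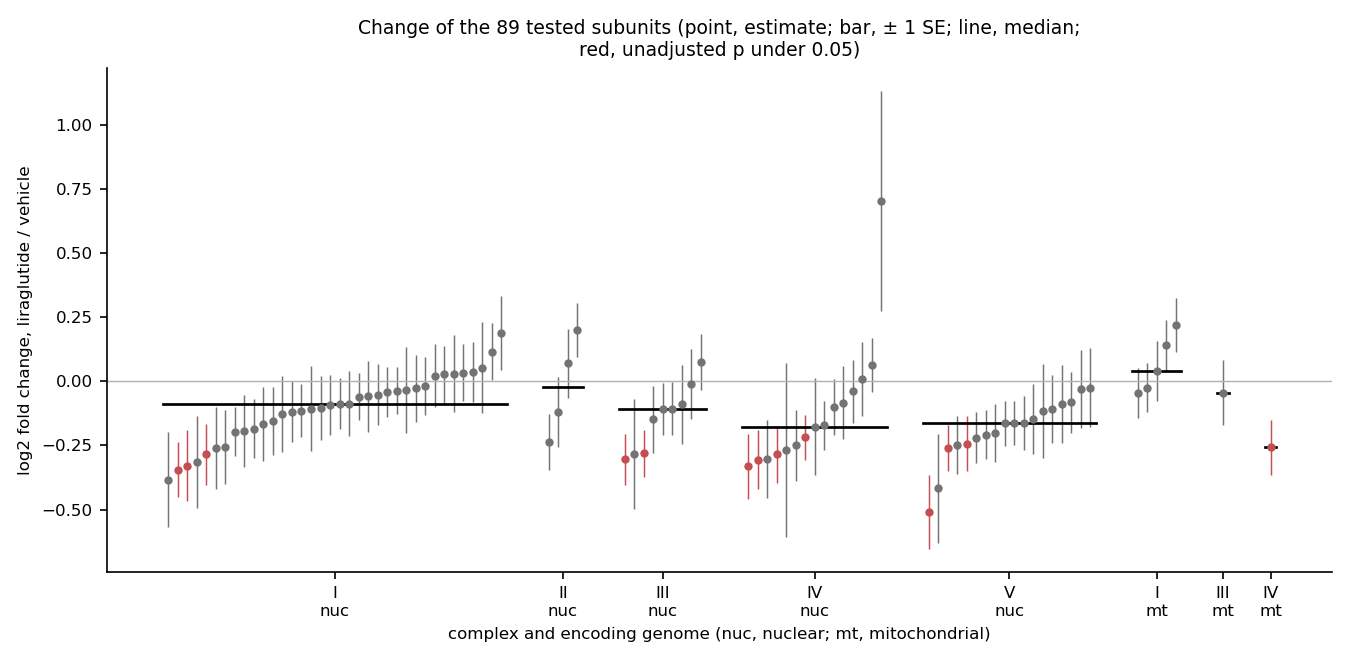
Log2 fold change of liraglutide over vehicle for the 89 tested subunits, grouped by complex and genome and sorted within each group (points, edgeR estimates; bars, ± 1 standard error; black lines, group medians; red, unadjusted p under 0.05). All 18 tested nuclear subunits of complex V lie below 0, whereas the 4 subunits of complex II and the 5 tested mitochondrial subunits of complex I lie on both sides.

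In complex V the estimates of all 18 tested nuclear members were negative, and their median was -0.16. The number of negative estimates was 16 with library size alone, where Atp5if1 and Atp5mc1 turned positive, 16 with a correction for gene length, and 14 to 18 when each tumor was left out in turn, with 14 without vehicle tumor 4. At an unadjusted p under 0.05, 3 were lower (Atp5mk, Atp5pb and Atp5pf) and 0 higher. Added up, the nuclear complex V members were at 1670, 1745, 1846, 1694 and 1788 CPM in the vehicle tumors and at 1486, 1563, 1626, 1511 and 1462 CPM in the liraglutide tumors. All 5 liraglutide sums were below all 5 vehicle sums. With library size alone the median of these 18 members was -0.11. The estimates were spread over the parts of the enzyme, with a median of -0.20 over the 5 subunits of the catalytic F1 head, alpha to epsilon, and -0.15 over the 13 other tested members.

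Atp5mk (ENSMUSG00000071528.4, chr19:47071822-47079143 of GRCm39, minus strand) encodes a small membrane subunit of complex V, also known for its part in joining the enzyme into dimers. It was at 70.7, 76.8, 70.5, 66.0 and 46.6 CPM in the vehicle tumors and at 45.5, 56.7, 43.6, 40.1 and 46.3 CPM in the liraglutide tumors. Vehicle tumor 5 lay among the liraglutide tumors and the other 4 vehicle tumors lay above all of them. The log2 fold change was -0.51 (standard error 0.14, unadjusted p = 0.00454, adjusted p = 0.482 by edgeR's test), the smallest unadjusted p of any member. Exact copies elsewhere in the genome covered 48.5% of its 100-base stretches, and their part in the value was not tested.

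Atp5pb (ENSMUSG00000000563.17, chr3:105849374-105867415 of GRCm39, minus strand) encodes a subunit of the peripheral stalk that holds the F1 head in place. It was at 155, 159, 167, 188 and 154 CPM with vehicle and at 124, 135, 149, 145 and 135 CPM with liraglutide, and the groups did not overlap. Its log2 fold change was -0.26 (standard error 0.09, unadjusted p = 0.0153 by edgeR's test). Atp5pf, another stalk subunit, was at 68.0 ± 5.73 CPM in vehicle and 57.5 ± 6.86 CPM in liraglutide tumors (SD, n = 5 each), a log2 fold change of -0.24 (standard error 0.11). Its groups overlapped, with liraglutide tumors 2 and 3 above the lowest vehicle tumor.

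The complex V member with the highest level per length was Atp5f1b, the catalytic beta subunit, at a mean of 227 CPM per kilobase over the 10 tumors. It was at 462 ± 61.9 CPM in vehicle and 413 ± 22.5 CPM in liraglutide tumors (SD, n = 5 each). Its log2 fold change was -0.16 (standard error 0.10), and between -0.20 and -0.08 with a tumor left out. The lowest per length among those tested was Atp5mc1, which encodes subunit c of the rotor ring, at 4.88 CPM per kilobase with an annotated length of 4755 bases, and its log2 fold change was -0.03 (standard error 0.15). The same mature protein is encoded by Atp5mc2 and Atp5mc3, which had log2 fold changes of -0.11 and -0.16, and Atp5mc2 had exact copies elsewhere for 100% of its stretches. The inhibitor gene Atp5if1 was at 60.05 ± 13.8 CPM in vehicle and 58.9 ± 6.17 CPM in liraglutide tumors (SD, n = 5 each), with a log2 fold change of -0.03 (standard error 0.15).

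In complex I the estimates lay closer to 0. Of its 36 tested nuclear members, 28 had a negative log2 fold change, 3 were lower at an unadjusted p under 0.05 (Ndufa2, Ndufv2 and Ndufs4) and 0 were higher, and the median was -0.09. The 7 nuclear core subunits, among them those that carry the flavin and the iron-sulfur clusters, had a median of -0.09 with 1 lower, and the 29 tested accessory subunits a median of -0.10 with 2 lower. With Ndufa4 and Ndufa4l2 counted here by symbol, the median was -0.10 and 4 were lower.

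Ndufa2 (ENSMUSG00000014294.4, chromosome 18) encodes an accessory subunit of the matrix arm. It was at 24.1, 28.3, 28.7, 32.8 and 27.0 CPM in the vehicle tumors and at 22.5, 20.1, 22.9, 21.8 and 23.5 CPM in the liraglutide tumors. No liraglutide tumor reached the lowest vehicle tumor, and the gap between the groups was 24.1 against 23.5 CPM. Its log2 fold change was -0.34 (standard error 0.11, unadjusted p = 0.00770, adjusted p = 0.482 by edgeR's test).

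Ndufv2, a core subunit of the NADH-oxidizing module, was at 62.2, 79.7, 63.6, 85.0 and 80.6 CPM in vehicle and at 62.8, 62.9, 68.8, 54.4 and 55.8 CPM in liraglutide tumors. The groups overlapped, since vehicle tumors 1 and 3 lay within the liraglutide range, and the log2 fold change was -0.29 (standard error 0.12). Ndufs4, an accessory subunit needed for a stable NADH-oxidizing module, was at 40.7 ± 7.88 CPM in vehicle and 32.4 ± 2.30 CPM in liraglutide tumors (SD, n = 5 each), with a log2 fold change of -0.33 (standard error 0.14). The vehicle tumors ranged from 30.5 to 51.0 CPM and enclosed the liraglutide tumors, at 30.4 to 36.2 CPM, but for the lowest.

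Per length, Ndufa6 was the highest nuclear complex I member, at 73.2 CPM per kilobase, and Ndufb9 the lowest tested, at 4.52 CPM per kilobase with an annotated length of 4197 bases. Their log2 fold changes were -0.11 (standard error 0.10) and -0.10 (standard error 0.12). With a tumor left out, Ndufa6 ranged from -0.16 to -0.06 and Ndufb9 from -0.15 to -0.04. In the other alternative fits they ranged from -0.11 to -0.04 and from -0.12 to -0.05. Compared per length, mt-Nd1 at 1774 and mt-Nd6 at 554 CPM per kilobase stood above every nuclear subunit of the same complex.

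Complex III had 9 tested nuclear members, of which 8 had a negative log2 fold change, 2 were lower at an unadjusted p under 0.05 (Uqcrfs1 and Uqcrh) and 0 higher, with a median of -0.11. Uqcrfs1 (ENSMUSG00000038462.3, chr13:30723448-30729345 of GRCm39, minus strand) encodes the Rieske iron-sulfur protein that passes electrons toward cytochrome c. It was at 54.9, 56.5, 55.6, 57.8 and 49.2 CPM in the vehicle tumors and at 50.8, 43.9, 43.8, 45.5 and 41.5 CPM in the liraglutide tumors. Liraglutide tumor 1 lay above vehicle tumor 5, and otherwise the groups were apart. The log2 fold change was -0.28 (standard error 0.09, unadjusted p = 0.00961, adjusted p = 0.482 by edgeR's test).

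Uqcrh, the hinge subunit at the site where cytochrome c docks, was at 73.6, 91.8, 86.4, 89.6 and 72.005 CPM with vehicle and at 66.3, 73.5, 66.4, 66.5 and 62.2 CPM with liraglutide. Liraglutide tumor 2 overlapped vehicle tumor 5, and the other 4 liraglutide tumors lay below all vehicle tumors. Its log2 fold change was -0.30 (standard error 0.10, unadjusted p = 0.0102, adjusted p = 0.482 by edgeR's test). Uqcrq, the third smallest by p, was at -0.28 with a larger standard error of 0.22, as its vehicle tumors ranged from 17.7 to 40.6 CPM, and it was at -0.10 without vehicle tumor 5 and -0.41 without vehicle tumor 1. Uqcrb had the highest level per length of the nuclear complex III members, 77.0 CPM per kilobase, and a log2 fold change of -0.01 (standard error 0.14), and Uqcr11 the lowest, 7.83 CPM per kilobase, with -0.09 (standard error 0.15). The mitochondrially encoded partner, mt-Cytb, was at 2900 ± 318 CPM in vehicle and 2813 ± 428 CPM in liraglutide tumors (SD, n = 5 each).

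In complex IV, 12 of 15 tested nuclear members had a negative log2 fold change and the median was -0.18, next to -0.16 for complex V. At an unadjusted p under 0.05, 4 nuclear members were lower (Cox7c, Ndufa4, Cox6c and Cox4i1), as was the mitochondrially encoded mt-Co1, and 0 were higher. Summed over nuclear members, vehicle tumors were at 822, 905, 925, 951 and 848 CPM and liraglutide tumors at 768, 776, 885, 751 and 777.5 CPM. All liraglutide tumors but tumor 3 lay below all vehicle tumors.

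Cox7c, a small membrane subunit, was at 47.9, 50.7, 56.6, 63.8 and 44.9 CPM in vehicle and at 38.96, 45.4, 47.7, 40.9 and 40.4 CPM in liraglutide tumors. The groups overlapped between 44.9 and 47.7 CPM, and the log2 fold change was -0.31 (standard error 0.12, unadjusted p = 0.0224 by edgeR's test). Exact copies elsewhere covered 68.3% of its 100-base stretches. Ndufa4, first described with complex I and found in complex IV, was at 56.6, 65.1, 50.8, 52.5 and 41.9 CPM in vehicle and at 39.5, 49.0, 45.3, 38.9 and 39.5 CPM in liraglutide tumors, a log2 fold change of -0.33 (standard error 0.13). Cox6c was at -0.28 (standard error 0.11), with 88.5 ± 12.1 CPM in vehicle and 72.6 ± 5.94 CPM in liraglutide tumors (SD, n = 5 each). The groups of both genes overlapped.

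**Figure D3:**
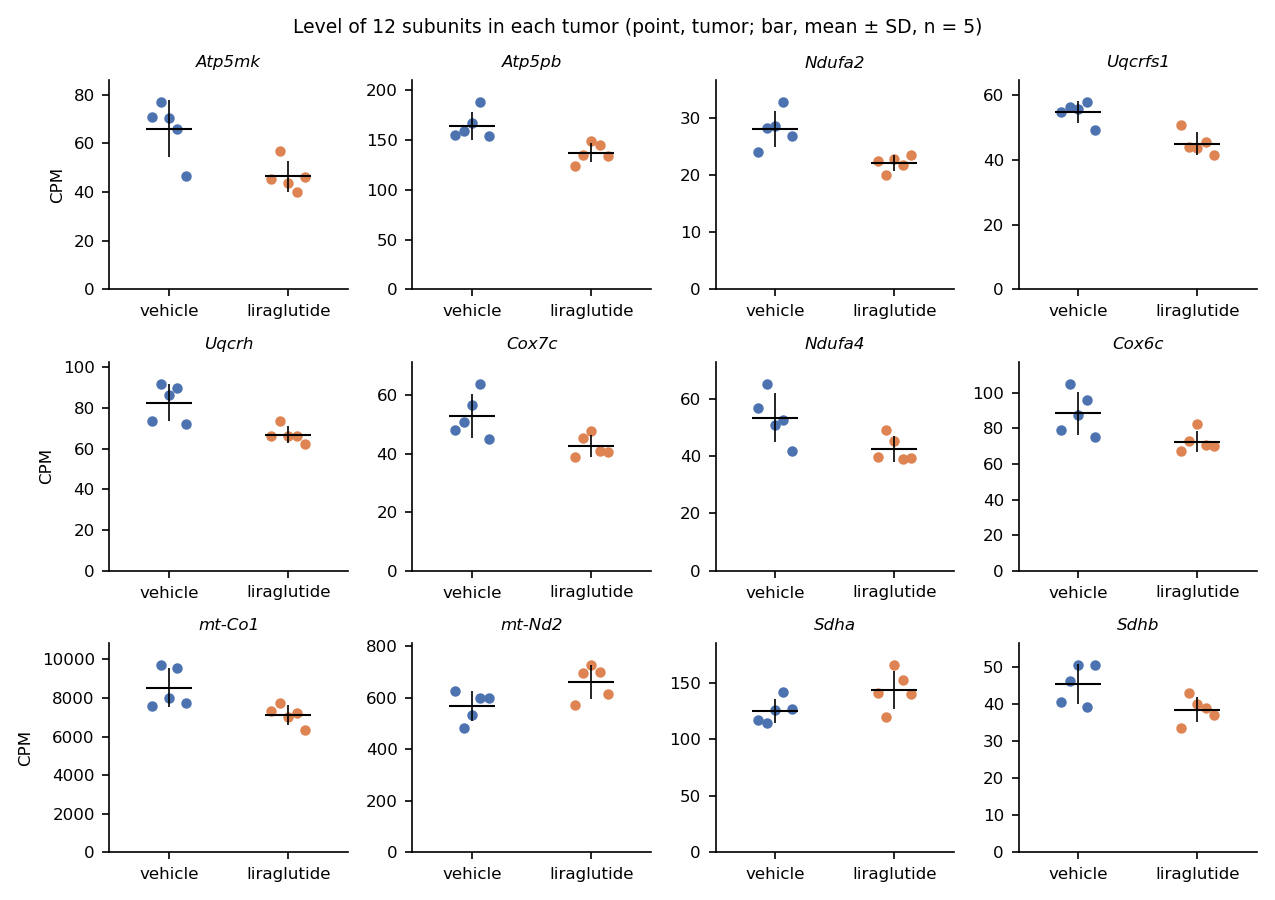
CPM (vertical axes, from 0) of 12 subunits in each of the 5 vehicle (blue) and 5 liraglutide (orange) tumors, with the mean ± SD of each group in black. Atp5pb and Ndufa2 do not overlap, mt-Co1 is lower in 4 of 5 liraglutide tumors than in any vehicle tumor, and mt-Nd2 and Sdha have higher liraglutide means.

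Several complex IV subunits exist as a broadly expressed form and a form of particular tissues, and in each pair the broad form had the higher mean level per length in these tumors. Cox4i1, which had the highest level per length of the nuclear complex IV members at 193 CPM per kilobase, was at 162 ± 13.7 CPM in vehicle and 140 ± 7.01 CPM in liraglutide tumors (SD, n = 5 each), a log2 fold change of -0.22 (standard error 0.09, unadjusted p = 0.0282 by edgeR's test). Cox4i2, the form known from lung and from hypoxic cells, was the lowest tested, at 1.85 CPM per kilobase. It was at 0.967, 0.406, 1.05, 1.17 and 1.71 CPM in vehicle and at 1.04, 0.653, 2.50, 2.08 and 2.46 CPM in liraglutide tumors. Liraglutide tumors 3, 4 and 5 lay above all vehicle tumors and the other 2 among them, and the log2 fold change was 0.70 (standard error 0.43) at an unadjusted p of 0.128 in edgeR's test. Per length, Cox4i2 made up 0.687% of both forms in vehicle and 1.29% in liraglutide tumors.

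The muscle forms Cox6a2 and Cox8b were near the limit of detection, where 3 counts correspond to 0.207 to 0.315 CPM, and Cox7a1 lay above it. Cox6a2, of heart and skeletal muscle, was at 0, 0.203, 0, 0.167 and 0.733 CPM in vehicle and at 0.259, 0.898, 0.455, 0.850 and 0.372 CPM in liraglutide tumors, beside Cox6a1 at 49.8 and 48.5 CPM on average. Cox8b lay between 0.0837 and 1.05 CPM in vehicle and between 0 and 0.691 CPM in liraglutide tumors, beside Cox8a at 58.9 and 52.2 CPM. Cox7a1 was at 2.30 ± 1.01 CPM in vehicle and 1.90 ± 0.502 CPM in liraglutide tumors (SD, n = 5 each), with a log2 fold change of -0.27 (standard error 0.34; -0.04 without vehicle tumor 3 and -0.47 without vehicle tumor 5), beside Cox7a2 at 55.1 and 44.6 CPM. Per length, with 441 bases annotated for Cox7a1 and 5250 for Cox7a2, Cox7a1 made up 32.8% of both forms in vehicle and 33.2% in liraglutide tumors. This share depends on the length annotated for Cox7a2, since before division by length Cox7a1 was at 2.30 CPM beside 55.1 CPM in vehicle tumors. The testis forms Cox7b2 and Cox8c had 0 counts in all tumors, and Cox6b2 at most 4 in a tumor. Cox7b, Cox8a and Cox6b1, their broad counterparts, had log2 fold changes of -0.25, -0.17 and 0.07 (standard errors 0.14, 0.10 and 0.11). Ndufa4l2, known to respond to hypoxia in place of Ndufa4, was at 3.04 ± 0.384 CPM in vehicle and 2.68 ± 0.466 CPM in liraglutide tumors (SD, n = 5 each).

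Skeletal muscle markers were compared in the same tumors, and 15 of 15 were tested. Of these, 14 had a positive log2 fold change (median 0.83), and 4 were higher at an unadjusted p under 0.05, among them Neb at 0.95 and Ttn at 1.08, while the muscle creatine kinase Ckm was at 2.63 and 4.91 CPM on average. Their summed level was between 321 and 1152 CPM in vehicle and between 669 and 1924 CPM in liraglutide tumors. The highest sums were in liraglutide tumors 5, 4 and 3, the tumors with the most Cox4i2, whereas Cox7a1 was at 1.56, 2.27 and 1.44 CPM there. Cox7a1 and Cox8b were highest in vehicle tumor 3, the vehicle tumor with the most muscle RNA at 1152 CPM, where Cox6a2 had 0 counts. Vehicle tumor 3 also had the highest summed adipocyte markers of all tumors, 102 CPM. Cox6a2 was highest in liraglutide tumor 2, with a muscle sum of 751 CPM. The part of muscle or adipocyte RNA in the subunit levels was not tested.

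**Figure D4:**
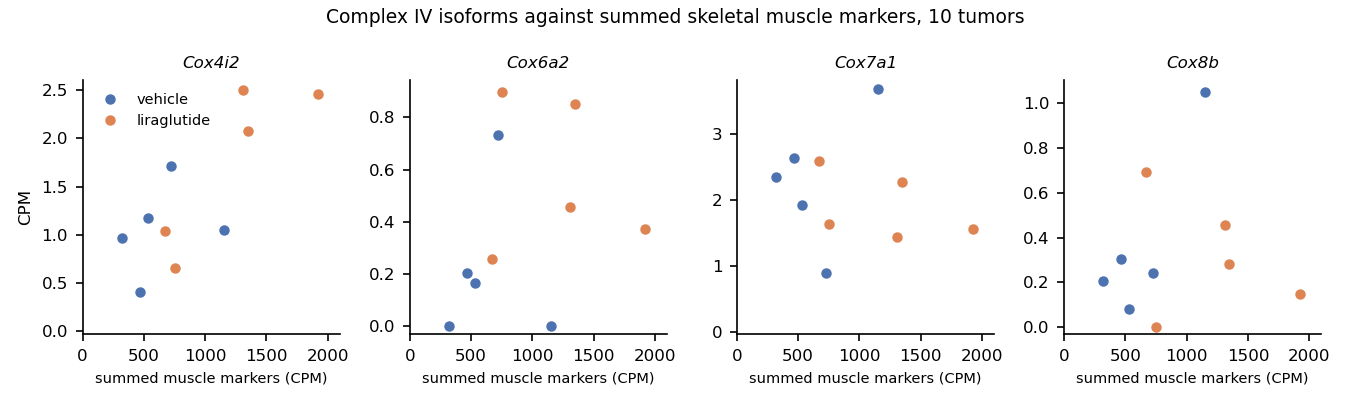
CPM of the complex IV isoforms Cox4i2, Cox6a2, Cox7a1 and Cox8b (vertical axes) against the summed CPM of 15 skeletal muscle markers (horizontal axes), 1 point per tumor, vehicle blue and liraglutide orange. Cox4i2 is highest in the 3 liraglutide tumors with the most muscle markers, Cox7a1 and Cox8b are highest in the vehicle tumor with 1152 CPM of markers, and Cox6a2 is at 0 in that tumor and highest in the liraglutide tumor with 751 CPM of markers.

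Complex II, which is also the succinate dehydrogenase of the citric acid cycle, had estimates on both sides of 0, with a median log2 fold change of -0.02 over its 4 subunits, and 0 had an unadjusted p under 0.05. Sdha, the flavoprotein that oxidizes succinate, was at 117, 115, 126, 141 and 127 CPM in the vehicle tumors and at 141, 120, 165, 152 and 140 CPM in the liraglutide tumors. Liraglutide tumors 3 and 4 were above all vehicle tumors, and the log2 fold change was 0.20 (standard error 0.10, unadjusted p = 0.0794 by edgeR's test). Sdhb, the iron-sulfur subunit that works beside it, was at 40.7, 46.3, 50.5, 39.3 and 50.5 CPM in vehicle and at 33.7, 42.9, 40.0, 39.1 and 37.2 CPM in liraglutide tumors, a log2 fold change of -0.24 (standard error 0.11, unadjusted p = 0.0539 by edgeR's test). The membrane anchors Sdhc and Sdhd were at 0.07 (standard error 0.14) and -0.12 (standard error 0.14), with 50.6 and 59.2 CPM on average in vehicle tumors and 53.1 and 54.5 CPM in liraglutide tumors. With a tumor left out, Sdhc ranged from 0.01 to 0.16 and Sdhd from -0.19 to -0.03. Per length, Sdhd was the highest of the 4 at 45.2 CPM per kilobase and Sdhb the lowest at 10.4, with an annotated length of 4030 bases for Sdhb.

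The standing of single tumors was compared next. For each tested subunit, the deviation of a tumor from the mean over all 10 tumors was taken on the log2 scale and averaged within a complex. Liraglutide tumor 3 was the highest liraglutide tumor in all 5 nuclear averages, at 0.08 for complex I, 0.13 for II, 0.10 for III, 0.10 for IV and -0.00103 for V. It had the highest value of its group in 47 of the 82 tested nuclear members and the lowest in 4. Among vehicle tumors, tumor 4 had the highest value in 33 and tumor 1 the lowest in 25 of the 82. For mt-Co1 liraglutide tumor 3 was at -0.15, below 3 of the other liraglutide tumors, and the range over all tumors was from -0.29 in liraglutide tumor 5 to 0.32 in vehicle tumor 2. For mt-Cytb the range was from -0.36 in liraglutide tumor 1 to 0.25 in liraglutide tumor 2.

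**Figure D5:**
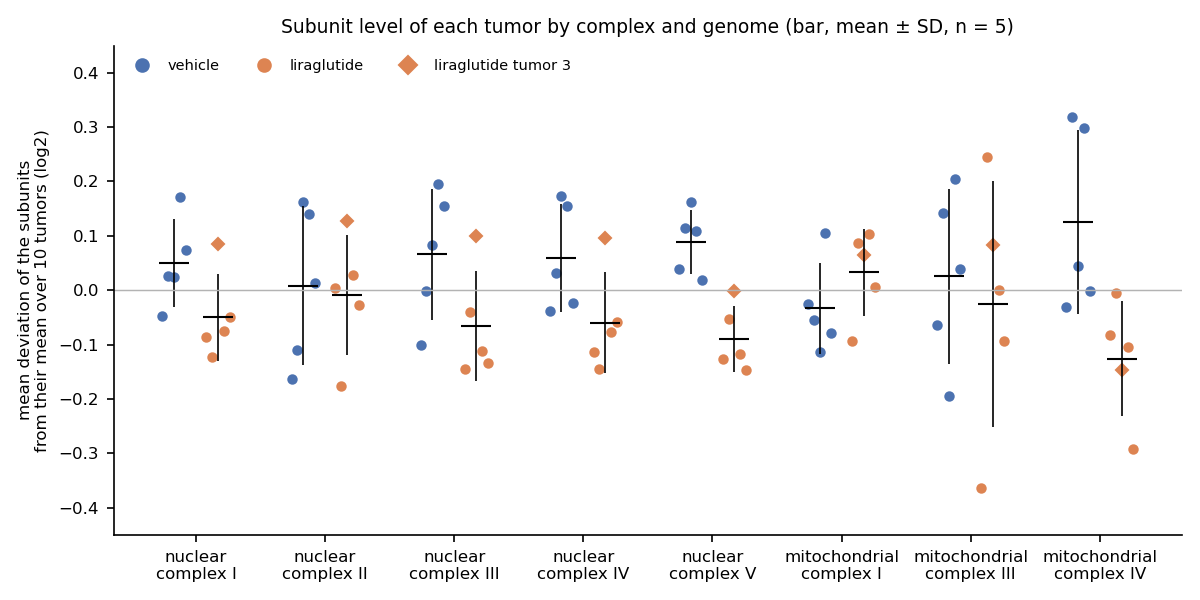
Mean log2 deviation of the tested subunits from their mean over the 10 tumors (vertical axis) by complex and genome (horizontal axis), 1 point per tumor, with group mean ± SD in black and liraglutide tumor 3 as a diamond. In nuclear complex V, liraglutide tumors lie between -0.15 and -0.00103 and vehicle tumors between 0.02 and 0.16, while in the other nuclear complexes and the mitochondrial complexes the groups overlap.

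Leaving out each tumor in turn kept the median log2 fold change of the nuclear members between -0.16 and -0.10, of complex IV between -0.21 and -0.13 and of complex V between -0.20 and -0.13. The complex I median ranged more widely, from -0.14 without liraglutide tumor 3 to -0.05 without vehicle tumor 4 and -0.04 without liraglutide tumor 2, and it was -0.04 with library size alone and -0.03 with a correction for gene length. The complex III median ranged from -0.17 without liraglutide tumor 3 to -0.08 without vehicle tumor 5 and was -0.06 with library size alone, and the complex II median took both signs, from -0.08 to 0.06. The number of lower members at an unadjusted p under 0.05 was less steady, at 8 without vehicle tumor 2 and 6 without either liraglutide tumor 4 or 5, against 13 with all tumors. No share of all genes is given for the fits with a tumor left out.

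Genes that build or feed the complexes were compared as lists, which hold no member. Of the assembly factors, 0 of 16 tested for complex I, 0 of 3 for complex II, 1 of 9 for complex III, 2 of 23 for complex IV and 1 of 5 for complex V were lower at an unadjusted p under 0.05, and 0 were higher. Their medians were -0.05, -0.19, 0.04, -0.01 and -0.05. Higd1a, a hypoxia-induced factor that binds complex IV, was at 85.9 ± 23.5 CPM in vehicle and 46.5 ± 5.94 CPM in liraglutide tumors (SD, n = 5 each), a log2 fold change of -0.89 (standard error 0.18, unadjusted p = 0.000395, adjusted p = 0.482 by edgeR's test). Coa6, which delivers copper to complex IV, was at -0.38 (standard error 0.16), Uqcc2 of complex III at -0.27 (standard error 0.12) and Atpaf2 of complex V at -0.27 (standard error 0.12). For complex I and complex II the smallest p values belonged to Nubpl and Ndufaf1, at -0.42 (standard error 0.25) and 0.19 (standard error 0.14), and to Sdhaf2 and Sdhaf3, at -0.21 (standard error 0.12) and -0.19 (standard error 0.21). Uqcc1 and Tmem70, the next of complexes III and V, were at 0.17 and -0.24 (standard errors 0.11 and 0.13).

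Of 15 genes for cytochrome c and coenzyme Q, 1 was lower and 0 higher (median -0.01): Cycs, the mobile electron carrier itself, at 54.2 ± 12.5 CPM in vehicle and 40.9 ± 7.45 CPM in liraglutide tumors (SD, n = 5 each). Hccs, which attaches heme to cytochrome c, was at -0.32 (standard error 0.16). Of 26 tested genes for the upkeep and transcription of mitochondrial DNA, 3 were lower and 0 higher, with a median of -0.10. These included Slirp, which stabilizes mitochondrial messenger RNAs, at -0.46 (standard error 0.13), and Pnpt1, which degrades RNA in mitochondria, at -0.28 (standard error 0.08), whereas Tfam, which packages mitochondrial DNA and activates its transcription, was at 36.7 and 32.2 CPM on average with an unadjusted p of 0.0883 by edgeR's test. Of 18 genes of the citric acid cycle and of the pyruvate dehydrogenase complex that feeds it, 13 had a negative estimate (9 of 14 without Pdha1, Pdhb, Dlat and Pdhx of that complex), 0 were lower or higher at that threshold, and the median was -0.07, with Dld at -0.41 (standard error 0.21) and Dlst at -0.34 (standard error 0.19) the closest. Of 10 tested regulators of mitochondrial genes, 0 were lower or higher (median -0.14), with Myc at -0.23 (standard error 0.11) and Esrra at -0.26 (standard error 0.14) the closest.

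The genes of the outer membrane and of protein import, with the matrix chaperonins Hspd1 and Hspe1, had mostly negative estimates. Of 17 tested, 16 had a negative log2 fold change, 8 were lower at an unadjusted p under 0.05 and 0 higher, and the median was -0.27. Both chaperonins were among the 8, and without them 6 of 15 were lower, with a median of -0.25. Tomm5, of the import pore, was at 24.2 ± 3.96 CPM in vehicle and 16.0 ± 1.35 CPM in liraglutide tumors (SD, n = 5 each), a log2 fold change of -0.59 (standard error 0.13). Tomm20, an import receptor, was at -0.32 (standard error 0.11).

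Lists of other genes were compared in the same tumors, and 0 of their genes passed adjustment by edgeR's test. All 15 hypoxia-responsive genes had a negative log2 fold change (median -0.59), and 8 were lower at an unadjusted p under 0.05, such as Pgk1 at -0.62 and Bnip3 at -0.90. Their summed level was 3563 to 5054 CPM in vehicle and 2569 to 3913 CPM in liraglutide tumors. Of 5 tested red blood cell markers, 4 were lower (median -2.02), with Hbb-bs at 30.1 and 7.45 CPM and Hbb-bt at 2.94 and 0.497 CPM on average, and a summed level of 27.2 to 74.9 CPM in vehicle and 15.6 to 33.5 CPM in liraglutide tumors. Of 7 tested keratinocyte markers, 6 were higher (median 1.93), with sums of 12.5 to 21.9 CPM in vehicle and 12.6 to 222 CPM in liraglutide tumors, of which tumors 1 and 3 lay within the vehicle range, and with Sbsn (1.08) and Ivl (1.32) the smallest in p. The part of these genes in the subunit values was not tested.

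Leukocyte markers were higher in 0 and lower in 0 of 18 tested (median 0.24, summed level 188 to 367 CPM in vehicle and 228 to 435 CPM in liraglutide tumors), with the defining gene Ptprc at 51.2 and 59.2 CPM and Cd3e and Itgam, the smallest in p, at log2 fold changes of 1.11 and 0.43. Fibroblast markers were higher in 1 of 10 (Pdgfrb, 0.36, with Acta2 next at 0.34), with sums of 1746 to 4107 and 2361 to 4032 CPM. Endothelial markers were lower in 1 of 8 (Vwf, -0.52, with Cldn5 next at -0.59), with sums of 109 to 174 and 111 to 139 CPM. Of the adipocyte markers, 5 of 10 passed the count filter, 0 were lower or higher (Fabp4 at -0.77 and Adipoq at -0.71 were the smallest in p), the sums were 30.3 to 102 and 33.6 to 64.6 CPM, and Ucp1, which marks brown fat, had 0 counts. Epithelial lung tumor markers were higher in 1 of 12 (Nkx2-1, 0.99, from 46.3 to 91.8 CPM on average, with Hnf4a next at 0.33), with sums of 5545 to 11288 and 5998 to 8337 CPM.

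Subunit genes are short, and over all genes tested the median estimate was lower in the groups of shorter genes. The tested nuclear members had a median annotated length of 1046.5 bases, against 2848 bases for all genes tested. For genes of up to 600 bases the median log2 fold change was -0.14 over 1179 genes tested and -0.13 over 20 members. For 600 to 1000 bases it was -0.06 over all genes and -0.10 over 20 members, for 1000 to 2500 bases -0.03 and -0.14 over 28 members, and above 2500 bases 0.01 and -0.10 over 14 members. From the shortest to the longest group, negative estimates made up 65.2%, 57.5%, 55.1% and 49.1% of all genes and 90%, 85%, 82.1% and 71.4% of the members, while the medians of the members had no steady order. With a correction for gene length, the median of the nuclear members was -0.08 with 60 of the 82 negative, and 10 members were lower and 1 higher at an unadjusted p under 0.05. The shares of all genes in that fit are not given, so these counts have none beside them. By copied stretches, the 68 tested nuclear members with under 10% copied had a median of -0.12 and the 14 with at least 10% had a median of -0.11.

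Promoter sequences from RefSeq (GRCm38.p6, 250 bases before to 50 after the start) were matched for 65 of the tested nuclear members, and 3 motifs known for mitochondrial genes were searched on both strands. GCGCATGC, a core of the NRF1 site, was in 10 members (15.4%), in 5.47% of 11003 tested genes with a promoter and in 2.71% of all 32851 promoters. AAGATGGC, a core of the YY1 site, was in 10 members (15.4%), 4.91% of tested genes and 2.75% of all promoters, and CCGGAAG, a core of sites for ETS factors such as GABP, was in 16 members (24.6%), 18.7% and 8.86%. The median log2 fold change was -0.10 for members with the NRF1 core, -0.03 with the YY1 core and -0.12 with the ETS core, and -0.15, -0.13 and -0.11 for the members without each of them. Matches of different motifs can share letters at their ends, as the ETS core ends and the YY1 core begins with AAG, and Atp5pf held both of these. A match is a description of the sequence and not of binding. The promoters of 2 members described above are shown, each with its motif in capitals on the strand opposite to the spelling given: Atp5pb, whose groups did not overlap, with the YY1 core at its start (chr3:105959214-105959513, minus strand, GRCm38.p6), and Uqcrh with the ETS core (chr4:116075021-116075320, minus strand, GRCm38.p6).
Atp5pb: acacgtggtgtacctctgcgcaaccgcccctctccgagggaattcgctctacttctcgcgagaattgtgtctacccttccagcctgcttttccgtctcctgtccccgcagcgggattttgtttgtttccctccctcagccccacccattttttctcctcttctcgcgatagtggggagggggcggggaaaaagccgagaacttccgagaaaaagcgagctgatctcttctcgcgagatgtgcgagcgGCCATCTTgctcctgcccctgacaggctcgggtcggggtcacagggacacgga
Uqcrh: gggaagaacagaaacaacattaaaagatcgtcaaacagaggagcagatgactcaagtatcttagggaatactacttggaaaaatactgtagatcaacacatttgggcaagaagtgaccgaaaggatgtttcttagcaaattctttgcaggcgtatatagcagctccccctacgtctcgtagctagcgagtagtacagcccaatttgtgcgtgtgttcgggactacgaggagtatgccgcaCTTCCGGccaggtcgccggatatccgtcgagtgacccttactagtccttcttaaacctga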

How the data were processed

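RNA-seq counts of 10 tumors were analysed. The authors deposited raw counts, whole numbers per versioned Ensembl gene with no normalization, made from ribosomal-RNA-depleted, strand-marked libraries of 100-base read pairs by FastQC, Bowtie, TopHat and featureCounts, after samples were removed at quality assessment. Their methods name GRCm39 and the submitters' processing notes mm10 and GRCh38. The annotation release, the strand setting and the handling of reads with several places are not given in the sources used here, so antisense and copied genes carry that uncertainty. Of the Ensembl identifiers, 51731 (93.38%) were found in GENCODE M39 once the version was dropped, which gave symbols, positions and exon lengths (1 CCDS transcript per gene). Only 35 had the same version, so lengths and positions may differ from the authors' models.

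Genes were filtered (filterByExpr, 17464 genes), TMM-scaled and tested with edgeR 4.0.16 (quasi-likelihood F test, treatment as the factor, R 4.3.3), with Benjamini-Hochberg adjustment over all genes. DESeq2 1.42.0 was an alternative. Standard errors are the log2 fold change over the square root of F. Groups came from the sample titles. The tumors differed within groups by at least 9.53 times counting noise (chi-square per degree of freedom). The 3-count floors cover counting error alone. Copied stretches were windows of 100 bases of a gene's reference transcript found elsewhere in GRCm39. On simulated data, edgeR recovered 46.4% of 97 genes changed by 1 and 87.2% of 94 changed by 2 on the log2 scale, with 4 false calls among 131 (17182 genes). The log2 fold changes of the members lay between -0.51 and 0.70, and changes of such sizes were not simulated. The p-values measure the spread between these tumors.

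Named genes were the 13 mitochondrially encoded members, complex II, the 3 nuclear members of smallest p in each other complex, members without overlap, the highest and lowest per kilobase, tissue isoforms, and the 2 genes of smallest p in each list. Others named in the text (ratios to mt-Co1, Atp5mc2, Atp5mc3, Atp5if1, Tfam, Ckm, Ptprc, Ucp1, Hspd1, Hspe1, pyruvate dehydrogenase genes, Krt7, Krt8, Krt18, Krt19, Cdh1, Epcam, Hmga2, Napsa, Sftpb and Sftpc) were chosen after their values were seen or for their roles. The members and lists were chosen with earlier results of these data known. Flow cytometry, culture and other data of the study were not analysed here. The engineered alleles of the tumor line are not reported here.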

Additional observations from a re-analysis of the deposited data

Results flagged for a closer look

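A tumor was called far from the others when its gap to the nearest tumor of its group exceeded 0.71 of the group's range, the Dixon limit for 5 tumors. This was asked of 92 groups of 5 tumors, in which chance alone gives about 1 in 20. It was met 3 times, each time by liraglutide tumor 3 on the high side. Cox6b1, a complex IV subunit, was at 98.9 CPM there against 81.5 CPM in the next tumor, a ratio of 0.715. The summed nuclear complex I members were at 1247 CPM against 1112 CPM, a ratio of 0.733. The summed nuclear complex IV members were at 885 CPM against 777.5 CPM, a ratio of 0.8002. With library size alone, the complex I sums of the liraglutide tumors ran from 1070 to 1259 CPM with the next at 1156. The complex IV sums ran from 771 to 893 CPM with the next at 814. Both gaps then fell under 0.71 of the range, so these flags depend on the scaling. The summed hypoxia-responsive genes of that tumor were at 2799 CPM, with 2569 to 3913 CPM over the liraglutide tumors, and their part in these values was not tested.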

How the results depend on the processing

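The count of members with an adjusted p under 0.05 was 0 in every fit. DESeq2's Wald test gave 40 genes over the whole table, 0 of them members, against 0 genes in each edgeR fit. At an unadjusted p under 0.05, library size alone gave 5 lower and 2 higher members and 0 without overlap. The higher count was 1 with genes of at least 10 counts in every tumor, 1 with the gene length correction and 1 with DESeq2. The shares of all genes given above are from the main fit alone. Leaving out each tumor in turn gave 6 to 17 lower, 0 to 2 higher, and 2 to 11 lower members without overlap. The lower count was 8 without vehicle tumor 2 and 6 without liraglutide tumor 4 or 5. Members without overlap numbered 4, 5, 11, 3, 6 and 4 without vehicle tumors 1, 4 and 5 and liraglutide tumors 1, 2 and 3. The share of all genes without overlap is not given for fits with a tumor left out, so these counts have no baseline. The cause of these shifts was not tested.

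The labels number the tumors 1 to 5 in each group and do not say whether the numbers pair them. Same-numbered tumors correlated at 0.360, 0.634, -0.0708, 0.0664 and 0.433 in their deviations from the group means. Both tumors numbered 2 and liraglutide tumor 1 correlated best with their own number, and the others did not. These 5 correlations are too few to decide whether tumors were paired. With the tumor number as a block, 14 members were lower and 1 higher at an unadjusted p under 0.05, and 0 passed adjustment. The shares of all genes under the block are not given.

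Signs turned for 13 of the 89 tested members with library size alone, 12 with the length correction, 3 of 88 with at least 10 counts, 1 with the block and 3 to 8 with a tumor left out. Among the genes of the naming rule, with library size alone these were mt-Nd1 (0.00813), mt-Nd6 (0.0322), mt-Cytb (0.00929), Uqcrb (0.0395), Cox6a1 (0.0177) and Atp5mc1 (0.0263). With the length correction they were mt-Nd1 (0.00398), mt-Nd6 (0.0651), Uqcrb (0.0707) and Cox6a1 (0.0481). With at least 10 counts they were mt-Nd6 (5.58e-05) and Uqcrb (0.0111), and with the block Uqcrb (0.00495). With a tumor left out, mt-Nd4 ranged from -0.00465 to 0.119, mt-Nd6 from -0.0748 to 0.0147, mt-Cytb from -0.107 to 0.0319, Uqcr11 from -0.172 to 0.0374, Uqcrb from -0.0649 to 0.12, Cox6a1 from -0.106 to 0.0447, Cox6b1 from -0.00545 to 0.109 and Atp5mc1 from -0.124 to 0.0935. The nuclear medians of complexes I, III, IV and V were negative in every fit.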
